A study of Mus musculus with 4 samples.

Results

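Genes that type I interferon switches on were compared between macrophages of the adult mouse ear dermis sorted as CX3CR1bright and as CX3CR1low. The set held 38 genes, named by symbol, and the array held 22180 genes with a single-symbol row. A row was used only where the platform annotation gave exactly 1 gene symbol, and a gene with several rows was represented by its brightest row on average. This gave values for 35 of the 38 genes, and Oas1a, Dtx3l and Ifi44 were not analysed here.

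The series held 2 CX3CR1bright and 2 CX3CR1low arrays of untreated C57Bl/6 mice, all of genotype Cx3cr1+/gfp, so that both subsets lacked a working copy of Cx3cr1 on 1 allele. Each sample was a sort from 3-6 pooled adult mice, and within a subset the 2 samples were taken from separate litters, per the series' design text. All values below are RMA levels on the log2 scale, and differences are CX3CR1bright minus CX3CR1low with the SE of limma's moderated test (n = 2 per subset). A level of a gene on this array cannot be set against the level of another gene, because each has its own probes.

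Type I interferons bind a receptor of the chains IFNAR1 and IFNAR2, which carry the kinases JAK1 and TYK2. Signalling from the receptor activates the factor ISGF3, which contains IRF9 and binds a DNA element called the ISRE in front of its target genes. The targets encode nucleic acid sensors, enzymes that block viral translation or replication, and feedback inhibitors. In tissue macrophages a low, tonic expression of such genes is known in the absence of infection.

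Promoters of 28 of the 38 genes were found in the RefSeq promoter table (build GRCm38.p6, 250 bases before to 50 after each transcription start). The ISRE core was searched on both strands as a half-site of the letters GAAA, any 2 bases and a second GAAA in the same direction, where overlapping matches count separately. It was present for 13 of the 28 genes, or 46.4%, against 3.99% of 27025 genes in the table. The 4 stretches that follow are the 200 bases before the start, 5′ to 3′ on the gene's strand, with the matches in capitals. Oasl1, Rsad2 and Isg15 are shown because they had the smallest p-values of the genes found in the table, and Ifit1 because it is a textbook interferon target with a small difference here.
Oasl1, chr5:114923040-114923239, plus strand: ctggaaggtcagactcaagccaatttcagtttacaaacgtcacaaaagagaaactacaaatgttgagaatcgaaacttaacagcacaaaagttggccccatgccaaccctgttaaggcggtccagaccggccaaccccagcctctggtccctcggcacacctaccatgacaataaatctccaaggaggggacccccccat
Rsad2, chr12:26456453-26456652, minus strand: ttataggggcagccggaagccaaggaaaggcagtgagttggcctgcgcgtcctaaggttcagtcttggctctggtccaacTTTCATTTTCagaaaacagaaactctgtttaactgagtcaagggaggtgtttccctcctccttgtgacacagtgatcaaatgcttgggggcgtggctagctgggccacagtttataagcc
Isg15, chr4:156200819-156201018, minus strand: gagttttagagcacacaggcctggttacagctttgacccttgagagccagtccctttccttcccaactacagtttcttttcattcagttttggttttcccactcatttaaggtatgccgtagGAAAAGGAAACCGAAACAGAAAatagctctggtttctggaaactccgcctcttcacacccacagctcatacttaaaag
Ifit1, chr19:34640689-34640888, plus strand: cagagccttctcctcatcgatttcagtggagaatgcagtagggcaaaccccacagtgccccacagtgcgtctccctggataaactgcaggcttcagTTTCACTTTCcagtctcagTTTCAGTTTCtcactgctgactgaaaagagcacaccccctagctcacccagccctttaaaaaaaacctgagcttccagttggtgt
Rsad2 had 1 match, beginning 120 bases before the start. Isg15 had 3 overlapping matches, beginning 78, 72 and 66 bases before the start, and Ifit1 had 2, beginning 104 and 85 bases before it. Oasl1 had no match in this window, which says only that these letters are not there. Matches thus stood before genes with a negative, a positive and a near-zero difference.

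Most of the set differed by under 0.5 between the subsets, as did most of all genes. The 4 genes with the smallest p-values were Oas2, Oasl1 and Rsad2 with negative differences and Isg15 with a positive one. None of the 33 genes bright enough to be tested passed an adjusted p of 0.05 (limma, Benjamini-Hochberg over all 13133 tested genes), where 0.137% of all tested genes did. At an unadjusted p under 0.05 (limma) there were 4 of the 33, or 12.1%, against 18.8% of all tested genes. Of the 35 measured genes 19 had a negative and 16 a positive difference, with a median of -0.035, against a median of -0.032 over all 22180 genes. The subsets did not overlap for 16 of the 35, or 45.7%, against 43.8% of all genes. These shares are near the background. Differences were under 0.5 in size for 29 of the 35 genes, or 82.9%, against 80.0% of all genes. With 2 arrays per subset an exact permutation test of a single gene cannot go below p = 0.333, so the tests rest on limma's pooled variance.

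**Figure D1:**
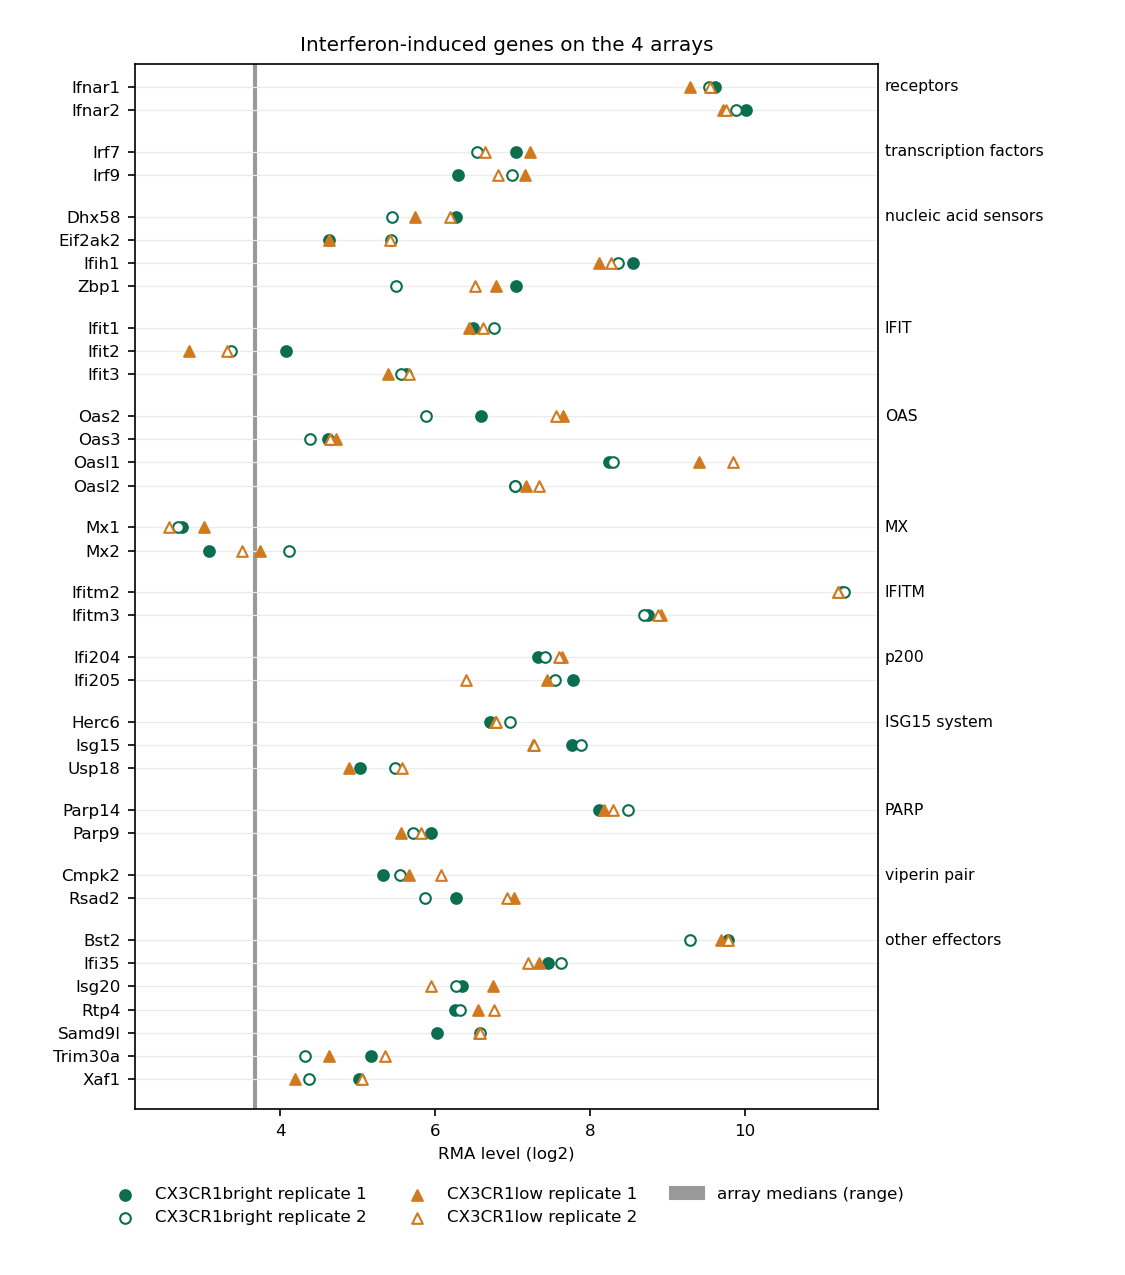
RMA level (log2) of the 35 measured interferon-induced genes on each array, with CX3CR1bright as circles and CX3CR1low as triangles, filled for replicate 1 and open for replicate 2, and the array medians as a grey band. The circles of Oas2, Oasl1 and Rsad2 lie to the left of their triangles and those of Isg15 to the right, and Mx1 lies left of the band on all arrays.

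The receptor chains were close in level in the subsets. Ifnar1 stood at 9.62 and 9.53 on the CX3CR1bright arrays, against 9.29 and 9.55 on the CX3CR1low arrays. Its difference was 0.15 ± 0.20, with a 95% interval of -0.35 to 0.65 (limma). Ifnar2 stood at 10.02 and 9.89 in CX3CR1bright cells, against 9.71 and 9.75 in CX3CR1low cells, a difference of 0.22 ± 0.18. The Ifnar1 values overlapped and those of Ifnar2 did not, and the 95% intervals of both include 0.

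Of the transcription factors, Irf9, the DNA-binding subunit of ISGF3, stood at 6.30 and 7.00 in CX3CR1bright cells, against 7.17 and 6.81 in CX3CR1low cells. The difference of -0.34 ± 0.30 changed sign to 0.0097 without CX3CR1bright replicate 1. Irf7, the factor that amplifies interferon transcription, differed by -0.14 ± 0.29 with levels that overlapped. Both replicate pairs of Irf7 were further apart, at 7.04 and 6.55 in CX3CR1bright and 7.22 and 6.65 in CX3CR1low cells, than the subset means.

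Among the nucleic acid sensors, Ifih1 encodes MDA5, a sensor of long double-stranded RNA. It stood at 8.56 and 8.36 in CX3CR1bright cells, against 8.12 and 8.28 in CX3CR1low cells, a difference of 0.26 ± 0.20. Dhx58, whose product LGP2 modulates MDA5, differed by -0.11 ± 0.34. Eif2ak2 encodes PKR, the kinase that stops translation on double-stranded RNA. It differed by 0.0058 ± 0.39, with 4.63 and 5.43 in CX3CR1bright cells, against 4.63 and 5.42 in CX3CR1low cells. The same-numbered Eif2ak2 values thus almost coincided, and the gap between replicates was far larger than that between subsets. Zbp1, a sensor of Z-form nucleic acids that can start cell death, stood at 7.05 and 5.49 in CX3CR1bright cells, against 6.79 and 6.52 in CX3CR1low cells. Its difference was -0.38 ± 0.52, and it was -1.16 without CX3CR1bright replicate 1 and 0.39 without CX3CR1bright replicate 2, so single arrays set its sign.

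The IFIT proteins bind viral RNA with foreign 5′ ends. Ifit1 stood at 6.48 and 6.76 in CX3CR1bright cells, against 6.44 and 6.62 in CX3CR1low cells, a difference of 0.091 ± 0.20 with a 95% interval of -0.43 to 0.61 (limma). Ifit3 stood at 5.63 and 5.56, against 5.38 and 5.66 in CX3CR1low cells, a difference of 0.072 ± 0.20. The levels of both genes overlapped between the subsets. Ifit2 stood at 4.07 and 3.36 in CX3CR1bright cells, against 2.82 and 3.31 in CX3CR1low cells. Only 1 of its 4 values lay above the array medians of 3.65 to 3.68, so it was not tested and its values can be background.

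The OAS family held the largest differences of the set. The OAS enzymes make short oligoadenylates that activate the nuclease RNase L, while OASL proteins share their fold. All 4 measured members had lower levels on both CX3CR1bright arrays than on either CX3CR1low array, a pattern found in 25.5% of all genes, and neither count nor median was put to a test. The median difference of the 4 was -0.79.

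Oas2 stood at 6.59 and 5.88 in CX3CR1bright cells, against 7.66 and 7.57 in CX3CR1low cells. The difference of -1.37 ± 0.28 is 2.59-fold, with a 95% interval of -2.09 to -0.66 (limma, adjusted p = 0.111). The CX3CR1low replicates almost coincided, and the CX3CR1bright replicates lay 0.71 apart. Oasl1, which in the mouse holds back translation of Irf7 mRNA, stood at 8.24 and 8.30 in CX3CR1bright cells, against 9.41 and 9.85 in CX3CR1low cells. It differed by -1.36 ± 0.22, or 2.56-fold, with an interval of -1.93 to -0.79 (limma, adjusted p = 0.0919). Of all tested genes 0.952% had a difference as low as that of Oas2 and 0.982% one as low as that of Oasl1. With 1 array left out their differences ran from -1.73 to -1.02 and from -1.58 to -1.14.

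The relatives of these genes showed smaller differences. Oasl2, which in the mouse keeps the synthetase activity, stood at 7.03 and 7.04 in CX3CR1bright cells, against 7.17 and 7.34 in CX3CR1low cells. Its difference was -0.22 ± 0.19, with a 95% interval of -0.69 to 0.25 (limma). Oas3, which favours long RNA, stood at 4.62 and 4.38 in CX3CR1bright cells, against 4.72 and 4.64 in CX3CR1low cells, and differed by -0.18 ± 0.19. The interval of Oasl2 lay wholly above that of Oasl1, but the difference between these paralogs was not tested. A row annotated to Oas1a and Oas1g together, which the single-symbol rule leaves out, stood at 5.71 and 4.68 in CX3CR1bright cells, against 5.49 and 4.97 in CX3CR1low cells. Probes of such similar paralogs may not separate them fully.

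**Figure D2:**
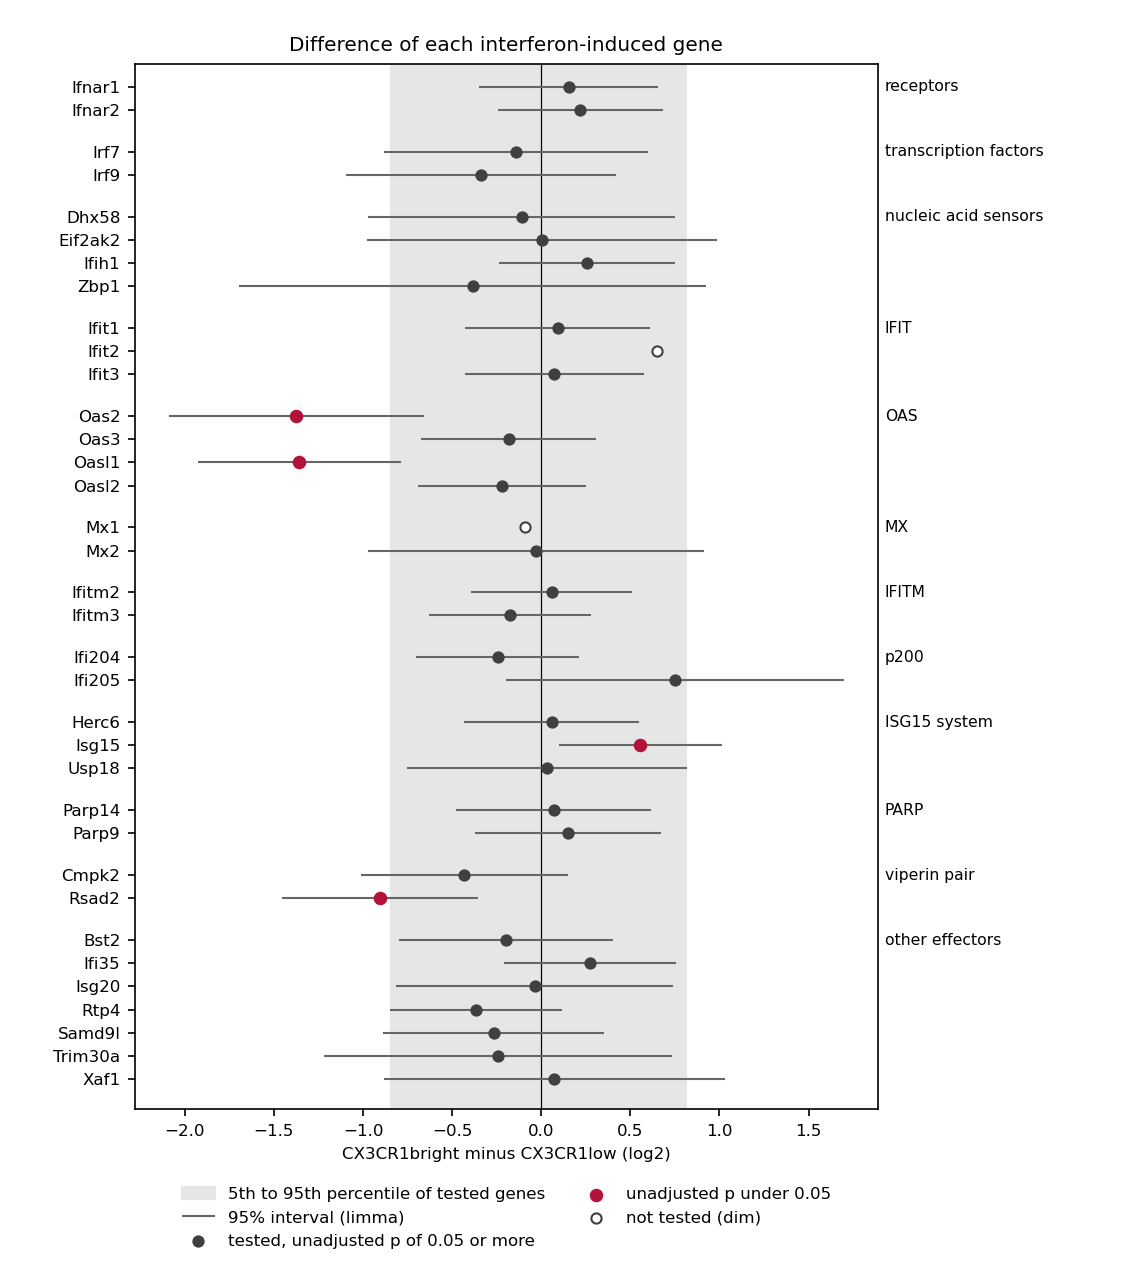
Difference between CX3CR1bright and CX3CR1low (log2) of each measured gene, with the 95% interval of limma where the gene was tested and the range from the 5th to the 95th percentile of all tested genes, -0.84 to 0.81, in grey. Oas2, Oasl1 and Rsad2 lie left of the grey range, and Isg15 lies inside it with an interval above 0.

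The MX genes encode dynamin-like GTPases that trap viral nucleoproteins, and C57BL/6 mice are known to carry a defective Mx1 allele. Mx1 stood at 2.72 and 2.67 in CX3CR1bright cells, against 3.02 and 2.56 in CX3CR1low cells. All 4 values lay below the array medians, and Mx1 was not tested. Mx2 stood at 3.07 and 4.11, against 3.74 and 3.50 in CX3CR1low cells, a difference of -0.029 ± 0.37 at a level that can be background. Neither gene gave a usable comparison at this signal.

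IFITM proteins hinder the fusion of virus with cell membranes. Ifitm2 stood at 11.25 and 11.28 in CX3CR1bright cells, against 11.20 and 11.21 in CX3CR1low cells, a difference of 0.060 ± 0.18 with a 95% interval of -0.39 to 0.51 (limma). Ifitm3 stood at 8.75 and 8.70, against 8.92 and 8.87 in CX3CR1low cells, a difference of -0.18 ± 0.18. Replicates of both genes lay within 0.05 of each other, and the SE here comes mostly from the variance shared with other genes.

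The p200 family holds DNA-binding proteins, many but not all of them with a pyrin domain. Ifi205 stood at 7.79 and 7.55 in CX3CR1bright cells, against 7.44 and 6.40 in CX3CR1low cells. The difference of 0.75 ± 0.37 was the most positive of the set (limma, adjusted p = 0.356), and it was 0.23 without CX3CR1low replicate 2 and 1.27 without CX3CR1low replicate 1. Ifi204 stood at 7.32 and 7.42 in CX3CR1bright cells, against 7.63 and 7.60 in CX3CR1low cells, a difference of -0.24 ± 0.18. A further row shared by Ifi204 and Ifi211 overlapped between the subsets, with 10.72 and 10.56 in CX3CR1bright cells, against 10.73 and 10.78 in CX3CR1low cells.

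Isg15, a ubiquitin-like protein that is joined to other proteins, stood at 7.77 and 7.88 in CX3CR1bright cells, against 7.26 and 7.27 in CX3CR1low cells. The replicates were close and the subsets did not overlap. The difference was 0.56 ± 0.18, or 1.47-fold, with a 95% interval of 0.098 to 1.02 (limma, adjusted p = 0.200). It stayed between 0.50 and 0.61 with 1 array left out. The levels of the other genes of the ISG15 system overlapped between the subsets. Herc6, the main ISG15 ligase of the mouse, differed by 0.059 ± 0.19, and Usp18, which removes ISG15 and damps signalling at IFNAR2, by 0.033 ± 0.31. Usp18 stood at 5.03 and 5.48 in CX3CR1bright cells, against 4.88 and 5.57 in CX3CR1low cells.

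Rsad2 encodes viperin, which makes a chain-terminating nucleotide, and its neighbour Cmpk2 encodes a kinase that supplies nucleotides. Rsad2 stood at 6.26 and 5.87 in CX3CR1bright cells, against 7.02 and 6.93 in CX3CR1low cells. It differed by -0.91 ± 0.22, or 1.87-fold, with an interval of -1.45 to -0.36 (limma, adjusted p = 0.137), and by -1.10 to -0.71 with 1 array left out. Cmpk2 had the same sign, with 5.33 and 5.54 in CX3CR1bright cells, against 5.66 and 6.07 in CX3CR1low cells. Its difference of -0.43 ± 0.23 had an interval of -1.01 to 0.15 (limma), which includes 0.

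Of the PARP genes, Parp9, whose product pairs with the ligase DTX3L, stood at 5.95 and 5.72 in CX3CR1bright cells, against 5.56 and 5.81 in CX3CR1low cells. It differed by 0.15 ± 0.21 and Parp14, a mono-ADP-ribosyltransferase, by 0.069 ± 0.22. A row shared by Dtx3l and Parp9, which the single-symbol rule leaves out, overlapped between the subsets. It stood at 5.44 and 5.16 in CX3CR1bright cells, against 5.26 and 5.29 in CX3CR1low cells. Among the remaining effectors, differences ran from -0.37 to 0.27. Rtp4, a Golgi chaperone of receptors, stood at 6.25 and 6.32 in CX3CR1bright cells, against 6.55 and 6.76 in CX3CR1low cells, and differed by -0.37 ± 0.19. Bst2, or tetherin, which holds budding virus at the cell surface, differed by -0.20 ± 0.24. The nuclease gene Isg20 differed by -0.035 ± 0.31, the apoptosis regulator gene Xaf1 by 0.074 ± 0.38, Trim30a, a TRIM family gene, by -0.24 ± 0.39 and Samd9l by -0.27 ± 0.24. Ifi35 had 2 rows that disagreed. The brighter gave 0.27 ± 0.19, and the other stood at 5.87 and 5.06 in CX3CR1bright cells, against 6.10 and 5.81 in CX3CR1low cells.

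The spread between arrays of the same subset set the limit. For 22 of the 35 genes the larger of both replicate gaps exceeded the difference between subsets. The median of that larger gap was 0.416 for the set and 0.384 for all tested genes. The 95% interval lay within -1 to 1 for 23 of the 33 tested genes, so that a 2-fold difference lies outside it for these 23.

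Further genes of the pathway came from lists that left out the 38, with the 3 smallest p-values of each list named. Across these lists 120 genes were tested, 0 passed an adjusted p of 0.05 (limma), and 7 had a positive and 17 a negative difference at an unadjusted p under 0.05, where 7.03% and 11.8% of all tested genes did. Their median difference was -0.056 over 143 measured genes. Of 10 tested genes for signalling below the receptor, Jak2, a kinase used by interferon-gamma and many cytokine receptors, stood at 9.96 and 10.19 in CX3CR1bright cells, against 8.77 and 8.84 in CX3CR1low cells. Its difference was 1.27 ± 0.19 (limma, adjusted p = 0.0845). The phosphatase genes Ptpn6 and Ptpn11 differed by 0.43 ± 0.19 and -0.42 ± 0.31. Jak1 and Tyk2, the kinases of the type I receptor, differed by 0.047 ± 0.21 and 0.071 ± 0.20, values picked after they were seen.

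Genes outside the set that sense nucleic acids and lead to interferon had negative differences in 14 of 16 cases, with a median of -0.35. Among all tested genes 57.5% were negative, with a median of -0.070. At an unadjusted p under 0.05 (limma) 6 of the 16 were negative and 1 positive, against 11.8% and 7.03% of all tested genes. Neither count was put to a test. Sting1, the adaptor of cytosolic DNA sensing, stood at 7.73 and 7.35 in CX3CR1bright cells, against 8.33 and 8.40 in CX3CR1low cells. It differed by -0.83 ± 0.21 (limma, adjusted p = 0.154). Ticam1, the adaptor of TLR3, differed by -0.74 ± 0.20 and Tlr7, a receptor for single-stranded RNA, by -0.77 ± 0.23. The positive gene was Cgas, the DNA sensor that feeds STING, at 4.34 and 5.15 in CX3CR1bright cells, against 3.80 and 3.75 in CX3CR1low cells, where it can be background. It was picked after its values were seen. The 4 nucleic acid sensors of the set, which this list leaves out, had 2 positive and 2 negative differences, with a median of -0.052.

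Of interferon receptors other than IFNAR, Ifngr1 differed by 0.43 ± 0.21, Il10rb by -0.091 ± 0.20 and Ifngr2 by -0.0041 ± 0.19. Of the interferon regulatory factors, Irf4 differed by -0.55 ± 0.24, Irf8 by -0.42 ± 0.24 and Irf1 by -0.20 ± 0.24. Of 9 type I interferon genes 3 were bright enough to test, and Ifna4, Ifna1 and Ifnb1 differed by 0.48 ± 0.35, -0.24 ± 0.27 and -0.016 ± 0.55. Ifnl2 and Ifnl3, of type III interferon, differed by -0.64 ± 0.19 and 0.14 ± 0.26.

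Other type I targets went both ways, with 30 positive and 43 negative of 73 measured and a median of -0.080. Of all 22180 genes 10227 were positive and 11942 negative, with a median of -0.032. At an unadjusted p under 0.05 (limma) 4 of 61 tested targets were positive and 10 negative, against 7.03% and 11.8% of all tested genes. Neither count was put to a test. Helz2, a helicase-type coactivator, stood at 5.63 and 5.51 in CX3CR1bright cells, against 3.79 and 3.68 in CX3CR1low cells, at about the array median. Its difference was 1.84 ± 0.19 (limma, adjusted p = 0.0541). Trim30c, a relative of Trim30a, differed by -1.44 ± 0.24 and the helicase gene Ddx60 by -0.98 ± 0.21. Further OAS genes, picked after their values were seen, differed among themselves. Oas1g stood at 5.28 and 4.73 in CX3CR1bright cells, against 5.64 and 5.91 in CX3CR1low cells. Oas1b overlapped between the subsets, with 4.85 and 4.33 in CX3CR1bright cells, against 4.46 and 4.67 in CX3CR1low cells. Oas1f, near the array median, overlapped as well, with a difference of -0.10 ± 0.26.

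**Figure D3:**
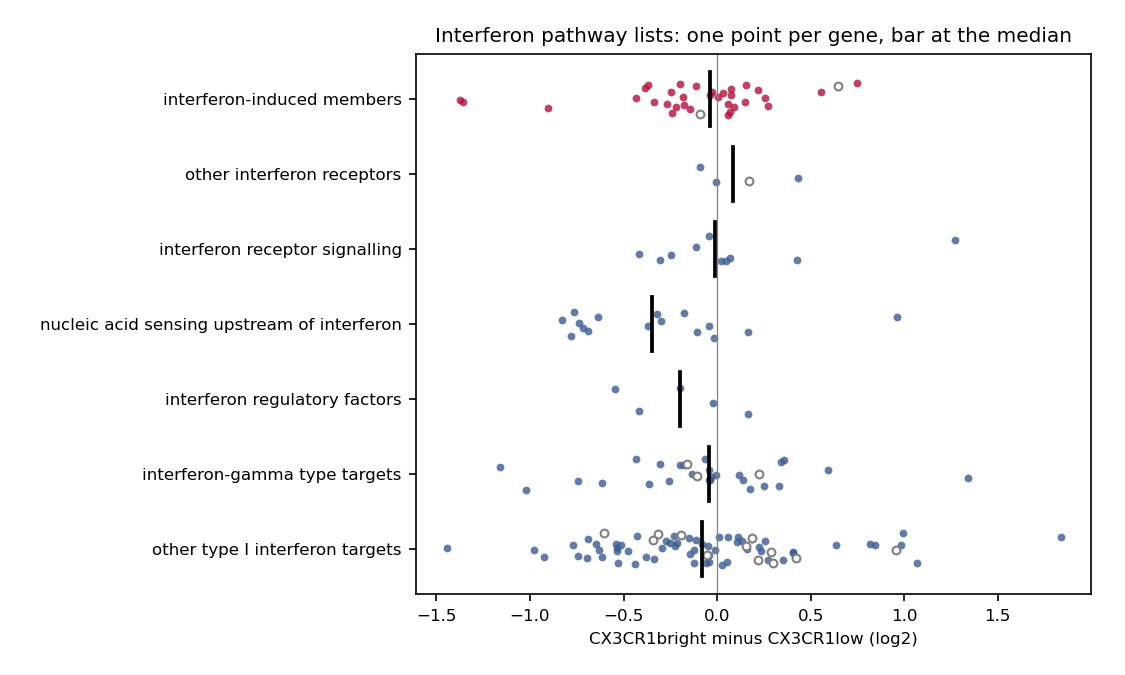
Difference between CX3CR1bright and CX3CR1low (log2) of every measured gene in the interferon-induced set and in 6 pathway lists, 1 point per gene, open where the gene was too dim to test, with a bar at the median. The medians of the set and of the other type I targets lie near 0, at -0.035 and -0.080, and that of the nucleic acid sensing list at -0.35.

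Most targets that interferon-gamma induces were brighter on replicate 1 than on replicate 2 in both subsets. Of 26 tested genes 25 were brighter on replicate 1 than on replicate 2 in both subsets, or 96.2%, against 26.5% of all tested genes. By more than 1 in both subsets there were 6, or 23.1%, against 0.335% of all tested genes. Gbp4 and Gbp8, part of both counts, passed the filter only through the 2 replicate 1 arrays, where they were high. The filter thus favoured this pattern for dim genes. Of the genes too dim to test, Cxcl11 was brighter on replicate 1 in both subsets, and Gbp6 and Ido1 were not. Between the subsets the median difference of the 29 measured genes was -0.044. Cxcl9, a chemokine for T cells, stood at 9.38 and 5.62 in CX3CR1bright cells, against 8.75 and 5.97 in CX3CR1low cells. Gbp4, a guanylate-binding protein, stood at 6.47 and 3.16, against 6.37 and 3.35 in CX3CR1low cells, and Iigp1, an immunity-related GTPase, at 7.59 and 5.65, against 7.73 and 5.59 in CX3CR1low cells. These 3 genes were picked after their values were seen.

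In the interferon-induced set, 8 of 33 tested genes were brighter on replicate 1 in both subsets, 12 on replicate 2 in both, and 0 by more than 1 in both. These shares of 24.2% and 36.4% compare with 26.5% and 29.9% of all tested genes. No test compared the replicates, and the labels do not say whether a replicate number marks a shared litter or day. Between the subsets the 3 gamma targets with the smallest p-values were Cxcl10, Tapbp and Nlrc5. Cxcl10 differed by 1.34 ± 0.28, Tapbp, of peptide loading, by -1.02 ± 0.24 and Nlrc5, the regulator of MHC class I, by -0.62 ± 0.28. Ifng itself, which was too dim to test and was picked after its values were seen, stood at 6.09 and 3.14 in CX3CR1bright cells, against 3.59 and 3.17 in CX3CR1low cells. Markers of T and NK cells were also brighter on replicate 1 in both subsets for 6 of 6 tested genes, against 26.5% of all tested genes. Of the 9 measured, 1 lay below the array median on CX3CR1bright replicate 1 and 3 on CX3CR1low replicate 1. On replicate 2 these counts were 5 and 4, so the filter itself favoured markers that were brighter on replicate 1. The part of these markers in the result was not tested.

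**Figure D4:**
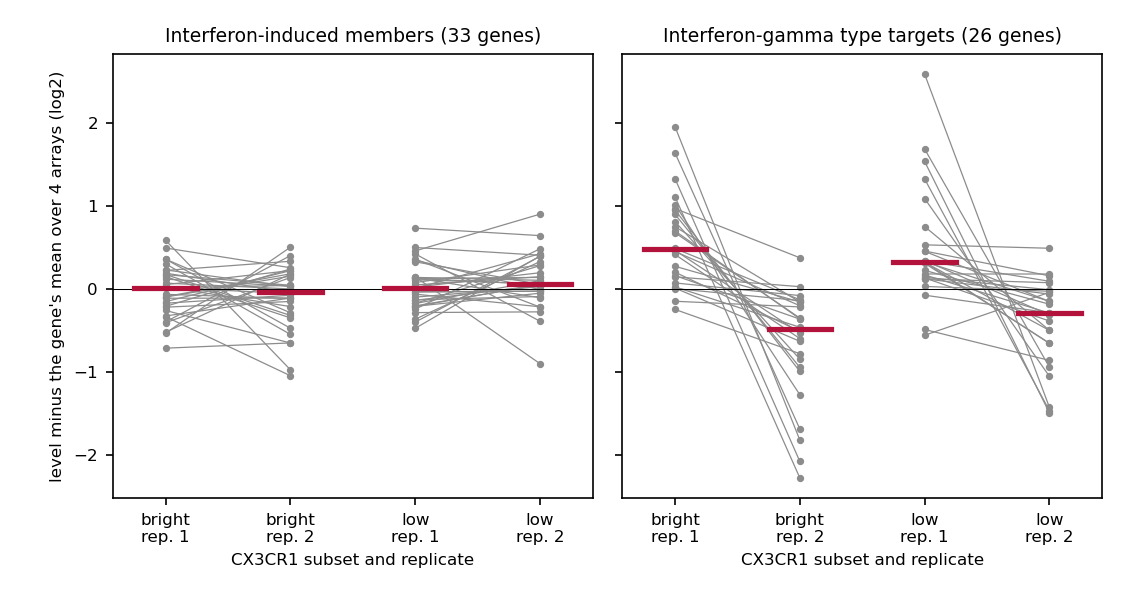
Level of each tested gene minus its mean over the 4 arrays (log2) for the 33 interferon-induced genes and for 26 interferon-gamma type targets, with a grey line joining the replicates of a subset and a red bar at the median. The bars of the gamma targets lie at 0.48 and -0.48 on CX3CR1bright replicates 1 and 2 and at 0.32 and -0.29 on CX3CR1low replicates 1 and 2, while those of the interferon-induced genes lie between -0.040 and 0.057.

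Markers of other cell types also stood at unequal levels in the subsets. Cx3cr1, which defined the gate, stood at 8.42 and 8.44 in CX3CR1bright cells, against 3.63 and 3.60 in CX3CR1low cells. All 11 measured macrophage markers lay above the array medians on all arrays, and their summed signal, on the log2 scale, was 14.30 and 14.27 in CX3CR1bright cells, against 14.53 and 14.56 in CX3CR1low cells. The summed signal of 13 keratinocyte markers was 10.76 and 12.57, against 10.40 and 9.86 in CX3CR1low cells, and that of 10 fibroblast markers 11.64 and 11.51, against 10.88 and 10.50. For 11 markers of conventional dendritic cells it was 9.83 and 9.71, against 8.70 and 8.72 in CX3CR1low cells, and for 5 Langerhans cell markers 10.50 and 11.22, against 9.63 and 9.59. Monocyte markers, 9 in number, summed to 9.98 and 9.99 in CX3CR1bright cells, against 9.39 and 8.58 in CX3CR1low cells. Mast cell markers ran the other way, with 8 of 9 differences negative and sums of 10.64 and 10.56 in CX3CR1bright cells, against 10.86 and 10.97 in CX3CR1low cells. For T and NK cell markers the sums were 8.35 and 7.28, against 7.32 and 7.08 in CX3CR1low cells. Neutrophil markers summed to 8.59 and 7.94, against 8.96 and 9.0, and endothelial markers to 7.98 and 7.23, against 7.75 and 8.23. A sum is weighted to the brightest rows of its list. Both of these lists of 10 held 5 positive and 5 negative differences. On each array 6 or 7 of the neutrophil and 3 to 7 of the endothelial markers lay below the array median. Markers of plasmacytoid dendritic cells, the specialised makers of type I interferon, summed to 10.62 and 10.58 in CX3CR1bright cells, against 10.52 and 10.60 in CX3CR1low cells. This list includes Bst2, itself a gene of the set, at 9.79 and 9.29 in CX3CR1bright cells, against 9.69 and 9.79 in CX3CR1low cells. Its sums are thus not independent of the set. Differences of its 9 measured markers ran from -0.26 to 1.34. The part of any of these lists in the differences of Oas2, Oasl1, Rsad2 and Isg15 was not tested. In such sorted pools fewer cells that carry a transcript and less transcript per cell cannot be told apart.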

How the data were processed

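Sorted-cell RNA was amplified and labelled with a kit for small inputs (Affymetrix WT Pico), per the labels' protocols. The authors deposited log2 levels, made by RMA with version 1.4 of Affymetrix Expression Console according to the submitters' processing notes. RMA estimates background, equalises the arrays and summarises probes, which can shrink differences of dim genes. The array's genome build and annotation release: not given in the sources used here.

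Of 34390 transcript clusters 23521 had 1 gene symbol in the platform annotation, 1814 several and 9055 none. By Entrez identifier 23328 matched RefSeq, and 0 symbols changed. Testing required values above the array's own median on 2 or more of the 4 arrays, which left 13133 of 22180 genes. The subsets were compared by limma (version 3.58.1, R 4.3.3; lmFit and eBayes, two-sided) with Benjamini-Hochberg adjustment over all tested genes and a threshold of 0.05. There were 2 residual degrees of freedom, and the prior added 3.28. The p-values reflect variation among pooled samples, and the number of arrays limits precision.

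The members and lists were chosen with earlier results of these data known. Per-array values are given for members with an unadjusted p under 0.05, the member with the smallest p of each role group, and all OAS, IFIT, MX, IFITM, p200 and receptor genes. Those of Irf7, Eif2ak2, Zbp1, Usp18, Cmpk2 and Bst2, and the second row of Ifi35, were added after they were seen. The procedure was tested on simulated data. Alternatives were other filters, scalings, variance priors, summaries per gene, all clusters, the replicate number as a block and each array left out.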

Additional observations from a re-analysis of the deposited data

How the results depend on the processing

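The count of interferon-induced genes past the threshold was 0, and 0 as well under 12 of 14 alternatives (limma, with 4 at an unadjusted p under 0.05 in the reported fit). It was 2 of 28 with a stricter filter on dim clusters (Oas2 and Oasl1, limma, adjusted p = 0.0467 and 0.0317), where 464 of 7327 genes passed. It was 1 of 33 with an intensity trend (Oasl1, limma, adjusted p = 0.0306), where 308 of 13133 genes passed. These shares are near the background. Without a filter, after quantile normalization, with a robust prior, all clusters or the block, the count over all genes was itself 0 or 1. A count of 0 in the set says little there. The stricter filter tested 7327 genes in place of 13133. The adjusted p of Oasl1 ran from 0.0306 to 0.490 over the alternatives, that of Oas2 from 0.0467 to 0.493, that of Rsad2 from 0.0607 to 0.511 and that of Isg15 from 0.0974 to 0.623. The direction of these 4 was the same in all alternatives, most of which could not change it. Other filters and variance priors, all clusters and the block left the difference of every gene as it was. The subsets did not overlap for these 4, so leaving out 1 array could not turn their signs. Each also had only 1 row, so that only the other scalings could have changed their direction. Signs were kept in all 14 by 17 of the 35 genes and changed at least once by 18, among them Irf7, Irf9, Dhx58, Zbp1, Eif2ak2 and Usp18.

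Over all genes the count past the threshold was 18. It was 1 without a filter, after quantile normalization, with a robust prior or with all clusters, 464 with the stricter filter, 33 after cyclic loess and 308 with an intensity trend. With 1 array left out it ran from 0 to 154 (154 without CX3CR1bright replicate 1, 0 without any other array). The cause was not tested. The median difference of the set was 0.013 after cyclic loess, and it ran from -0.15 without CX3CR1low replicate 1 to 0.063 without CX3CR1low replicate 2.

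With the replicate number as a block the count over all genes was 0 (limma, with 2637 at an unadjusted p under 0.05) and that of the set 0. Deviations of same-numbered arrays from their subset means correlated at 0.16 across tested genes, which are not independent replicates, and the labels do not state a pairing. Signal over background limited the MX genes and Ifit2.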

Other observations

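Relatives of Ifi204 and Ifi205 in the p200 family, picked after their values were seen, went both ways. Ifi202b stood at 6.10 and 7.60 in CX3CR1bright cells, against 5.21 and 5.05 in CX3CR1low cells, a difference of 1.72 ± 0.50 (limma, adjusted p = 0.176). Its CX3CR1bright replicates lay far apart, with an SD of 1.06 against 0.12 in CX3CR1low cells. Ifi209 stood at 7.44 and 6.54, against 6.57 and 5.27 in CX3CR1low cells, with replicate gaps of the size of the difference. Ifi207 stood at 7.53 and 7.22 in CX3CR1bright cells, against 7.81 and 7.62 in CX3CR1low cells. These genes lie in a cluster of similar sequences, and their probes may not separate them fully.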
